A study of Mus musculus with 24 samples.

Results

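The genes for the IL-12 and IL-23 family cytokines were followed across wildtype and AhR-deficient bone marrow-derived macrophages (BMDMs), with and without LPS. The 5 genes are Il12a, Il12b, Il23a, Il27 and Ebi3, out of 55421 genes counted. They were selected on their symbols and on a reversal of the genotype difference after LPS in all 24 libraries, so that the differences between genotypes chose them and are given here as a description with no test. The response to LPS in AhR-deficient BMDMs is a description too, since a low level before and a high level after LPS in these cells is what the rule looked for. The response in wildtype was tested for Il12b, Il27 and Ebi3. All 5 genes passed the filter on low counts, which asks for 0.174 CPM in 6 libraries, but Il12a and Il23a reached that level in none of the unstimulated libraries and passed through the LPS groups, so that their responses had to differ and are not tested.

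Gene expression was measured by poly(A) RNA sequencing in 4 groups of 6 libraries, namely wildtype unstimulated, AhR-KO unstimulated, wildtype LPS and AhR-KO LPS. The AhR-KO mice carried the Ahr tm1Bra allele on a B6.129 background, which removes the receptor in every cell of the body and throughout the culture, and the wildtype mice were C57/B6/J. Male and female mice were used, matched for age and sex, and the libraries of a group came from separate animals of a single experiment. Bone marrow of both genotypes was grown with GM-CSF at 10 ng/ml and TGF-β at 2 ng/ml, which drives cells towards an alveolar-like state. LPS was given on day 6 at 97 EU/ml for 24 h, followed by the Ca2+-ionophore A23187 at 5 µM for 10 min. The labels give all samples the same treatment text, which does not say whether unstimulated cultures also received the ionophore, nor whether unstimulated and stimulated cultures shared animals.

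Cytokines of this family are secreted as paired chains that are encoded by separate genes. IL-12 joins the shared chain of Il12b to that of Il12a and drives interferon-γ production by T and NK cells through STAT4. IL-23 joins the chain of Il12b to that of Il23a and sustains cells that make IL-17 and IL-22, and IL-27 joins the chains of Ebi3 and Il27 and acts on T cells and myeloid cells. Macrophages and dendritic cells make these cytokines when Toll-like receptors such as the LPS receptor TLR4 activate NF-κB and interferon regulatory factors, and signals from CD40 add to the response while IL-10 restrains it.

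Depth lay between 45106052 and 76992663 counts per library, and values are given as counts per 1000000 scaled counts (CPM). Of the 10 markers of alveolar-like macrophages, such as Marco, Pparg and Siglecf, every one had counts in all 4 groups, and their summed level lay between 6171 and 12940 CPM over all libraries. Most of this sum came from Chil3, Adgre1, Car4 and Itgax. Single markers moved, as Siglecf fell with LPS from 62.0 to 7.43 CPM in wildtype (log2 fold change -3.06, adjusted p = 1.9e-07) and from 184 to 12.2 CPM in AhR-deficient BMDMs (-3.92, adjusted p = 4.2e-09), and was higher in the latter without stimulation (1.57, adjusted p = 2.8e-03). With LPS in wildtype the log2 fold change was -3.98 for Mrc1, -2.99 for Fabp4, -1.53 for Pparg and -1.13 for Chil3. Adgre1 and Car4 rose there, by 2.13 and 1.07, and Marco, Itgax and Mertk did not pass. Counts of Ahr cover all its exons, also those outside the deleted stretch, and therefore do not check the knockout. They came to 28.3 CPM in wildtype and 7.41 CPM in AhR-deficient BMDMs without stimulation and to 16.8 and 43.1 CPM after LPS. The receptor's target Ahrr, a repressor of AhR, separated the genotypes in every library, with 13.3 to 96.6 CPM in wildtype and 0 to 1.05 CPM in AhR-deficient BMDMs. Cyp1b1, another target, was at 3.11 against 0.306 CPM without stimulation and 18.1 against 2.96 CPM after LPS. One library, AhR-KO LPS replicate 31, stood apart for Il12b and Il23a, and results that rest on it are given with and without it.

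The 5 genes lie on 5 chromosomes of mm10. Il12a (ENSMUSG00000027776) is on chromosome 3 from 68690644 to 68698547, Il12b (ENSMUSG00000004296) on chromosome 11 from 44400063 to 44414033 and Ebi3 (ENSMUSG00000003206) on chromosome 17 from 55952640 to 55957022, all on the plus strand. Il23a (ENSMUSG00000025383) is on chromosome 10 from 128296139 to 128298752 and Il27 (ENSMUSG00000044701) on chromosome 7 from 126589010 to 126594941, both on the minus strand. Il27 overlaps Apobr and Ebi3 overlaps Gm16712, each on the opposite strand, and the counting used strand.

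The sequences upstream of the start sites are shown for the genes matched by symbol in RefSeq (build GRCm38.p6), since these are the stretches from which the genes are switched on. Il12a, which has a pair of start sites there, Il12b and Ebi3 were matched, 3 of the 5 genes. Each sequence is the 250 bases before a start site, read 5′ to 3′ on the plus strand, at chr3:68690394-68690643 and chr3:68691174-68691423 for Il12a, chr11:44399813-44400062 for Il12b and chr17:55952373-55952622 for Ebi3. Capitals mark matches to the motifs named after the sequences.
Il12a, first start: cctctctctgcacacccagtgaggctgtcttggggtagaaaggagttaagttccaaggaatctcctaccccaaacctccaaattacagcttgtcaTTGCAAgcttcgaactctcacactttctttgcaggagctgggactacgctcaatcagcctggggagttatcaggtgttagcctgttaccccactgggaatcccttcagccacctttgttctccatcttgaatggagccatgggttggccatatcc
Il12a, second start: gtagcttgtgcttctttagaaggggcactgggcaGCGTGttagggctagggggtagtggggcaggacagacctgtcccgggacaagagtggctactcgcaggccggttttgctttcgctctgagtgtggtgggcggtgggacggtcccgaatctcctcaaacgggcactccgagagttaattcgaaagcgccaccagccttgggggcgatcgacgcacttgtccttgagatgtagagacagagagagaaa
Il12b: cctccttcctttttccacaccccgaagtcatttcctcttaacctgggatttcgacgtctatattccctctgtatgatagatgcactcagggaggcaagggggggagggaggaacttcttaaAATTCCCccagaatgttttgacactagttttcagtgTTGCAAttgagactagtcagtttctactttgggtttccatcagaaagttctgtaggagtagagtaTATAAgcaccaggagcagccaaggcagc
Ebi3: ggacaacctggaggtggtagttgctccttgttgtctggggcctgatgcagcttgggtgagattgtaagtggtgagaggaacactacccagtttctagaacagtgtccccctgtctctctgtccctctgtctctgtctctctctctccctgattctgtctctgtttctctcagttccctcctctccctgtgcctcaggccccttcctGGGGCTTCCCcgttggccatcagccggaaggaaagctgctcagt

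The motifs searched on both strands were the AhR core GCGTG, the C/EBP half-sites TTGCAA, the AP-1 site TGANTCA, the interferon-stimulated response core by its name, the κB half-site GGGAATT, the TATA box TATAA and the full κB consensus by its name. The window of Il12b held a κB half-site on the minus strand from -129 to -123, a C/EBP match from -93 to -88 and a TATA box from -28 to -24, counted from the start site. The same C/EBP letters stood from -155 to -150 before the first start of Il12a. Of all 32851 windows of this length, 3.08% held the κB half-site, 5.34% the C/EBP letters and 22.8% the TATA letters. Ebi3 held a full κB consensus from -44 to -35, found in 3.9% of all windows, and no TATA letters. The AhR core was found once, from -216 to -212 before the second start of Il12a, and 28.2% of all windows held it. The AP-1 letters (6.75% of all windows) and the interferon-stimulated response core (2.98%) had no match in these windows. A match is a description of the letters only, and binding was not measured here.

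**Figure D1:**
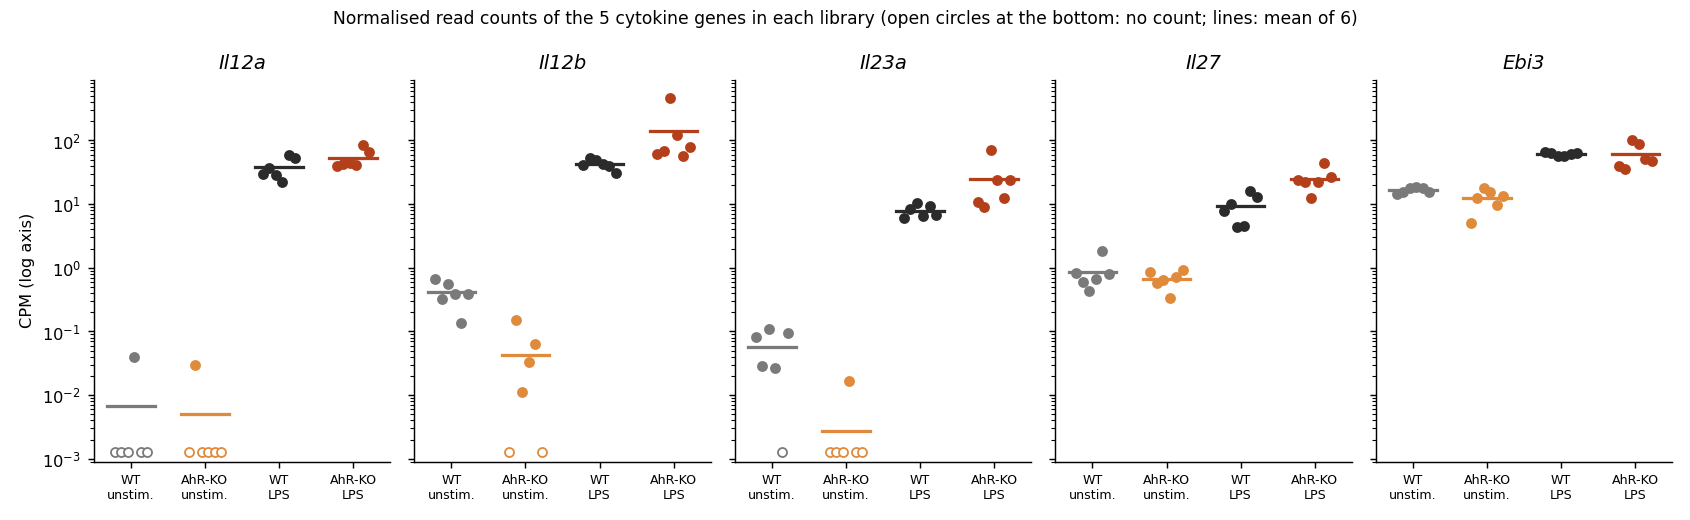
CPM of each cytokine gene in all 24 libraries on a log axis, with 1 point per library, a line at the mean of 6 and open circles at the bottom for libraries without a count. Every LPS library lies above every unstimulated library for all 5 genes, and the AhR-KO LPS libraries of Il12b lie above all wildtype LPS libraries.

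All 5 genes were higher after LPS in both genotypes, and for each of them every LPS library was above every unstimulated library of its genotype. The share of all genes without such overlap is not given here. Over all genes, 13.2% were called higher after LPS in wildtype and 15.1% in AhR-deficient BMDMs, where a gene was called with an adjusted p up to 0.05 and a change by 1 or more, in either direction, on the log2 scale (edgeR quasi-likelihood test). Fitted fold changes of genes with almost no counts before LPS depend on the prior count, and ratios of summed counts are given for them instead.

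Il12b, which encodes the chain shared by IL-12 and IL-23, was low but measurable before stimulation. In unstimulated wildtype BMDMs its lowest, median and highest values were 0.136, 0.390 and 0.674 CPM (0.413 ± 0.187, SD, n = 6). After LPS in wildtype they were 30.3, 41.3 and 52.9 CPM (42.6 ± 7.98, SD, n = 6), which gives a log2 fold change of 6.66 with a standard error (SE) of 0.64 and an adjusted p of 1.3e-08. Both groups were far apart, and the spread among the wildtype LPS libraries was small beside the change.

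AhR-deficient BMDMs started lower for Il12b and ended higher. Without stimulation the 6 libraries held 17 counts in all, from 0 to 0.151 CPM with a median of 0.0221 CPM, and 4 of them had counts. After LPS the lowest, median and highest values were 57.7, 73.7 and 467 CPM (142 ± 161, SD, n = 6). The difference was 11.60 on the log2 scale (SE 0.81). With 1 library left out it ranged from 10.73, without replicate 31, which held the highest value, to 12.55. The ratio of summed counts was 3358, with a 95% exact binomial interval from 2097 to 5764 that covers counting error only, and 1827 without replicate 31 (1141 to 3137).

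Il12a encodes the chain that IL-12 does not share with IL-23, and it was almost without counts before LPS. In unstimulated wildtype BMDMs 1 library held all 3 counts, and in unstimulated AhR-deficient BMDMs 1 library held both of the 2 counts. After LPS the lowest, median and highest values were 22.5, 33.1 and 60.1 CPM in wildtype (38.6 ± 15.0, SD, n = 6) and 39.1, 43.8 and 85.7 CPM in AhR-deficient BMDMs (53.3 ± 18.5, SD, n = 6). The 2 stimulated groups overlapped. The ratio of summed counts, LPS over unstimulated, was 4922 in wildtype (95% interval 1684 to 23870) and 10160 in AhR-deficient BMDMs (95% interval 2813 to 83940).

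Il23a, the chain particular to IL-23, followed Il12b at a lower level. In unstimulated wildtype BMDMs it had 25 counts over 5 of the 6 libraries, from 0 to 0.110 CPM with a median of 0.0546 CPM, and in unstimulated AhR-deficient BMDMs a single count. After LPS in wildtype the lowest, median and highest values were 5.98, 7.48 and 10.3 CPM (7.84 ± 1.71, SD, n = 6), and the ratio of summed counts was 128 (95% interval 86.5 to 198). The AhR-KO LPS libraries reached 9.07, 18.1 and 70.3 CPM (25.1 ± 23.1, SD, n = 6), and 5 of them were above all wildtype LPS libraries. Against the single count before LPS the ratio of summed counts was 10060 with a 95% interval from 1806 to 397600, and without replicate 31 it was 6458 (1158 to 255100).

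Il27 encodes the chain of IL-27 that is made on stimulation, and it was detected in every library. Unstimulated wildtype BMDMs had 0.439, 0.735 and 1.82 CPM as lowest, median and highest value (0.857 ± 0.490, SD, n = 6), and unstimulated AhR-deficient BMDMs had 0.331, 0.681 and 0.908 CPM (0.673 ± 0.210, SD, n = 6). After LPS the values were 4.39, 8.82 and 16.1 CPM in wildtype and 12.3, 23.4 and 43.8 CPM in AhR-deficient BMDMs, where 5 of the 6 libraries were above all wildtype LPS libraries. Il27 thus rose by 3.44 on the log2 scale in wildtype (SE 0.40, adjusted p = 2.3e-07) and was higher by 5.23 in AhR-deficient BMDMs (SE 0.43).

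Ebi3, the partner chain in IL-27, was the only one of the 5 genes above 2 CPM in every unstimulated library and had the smallest response. Its lowest, median and highest values were 14.4, 16.7 and 18.3 CPM in unstimulated wildtype and 4.98, 12.97 and 17.7 CPM in unstimulated AhR-deficient BMDMs. After LPS they were 57.3, 61.8 and 65.0 CPM in wildtype (61.2 ± 3.36, SD, n = 6) and 36.2, 50.1 and 101 CPM in AhR-deficient BMDMs (61.0 ± 27.1, SD, n = 6). LPS raised it by 1.88 on the log2 scale in wildtype (SE 0.26, adjusted p = 2.6e-06) and it was higher by 2.31 in AhR-deficient BMDMs (SE 0.26). The AhR-KO LPS libraries lay both above and below the narrow wildtype range.

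**Figure D2:**
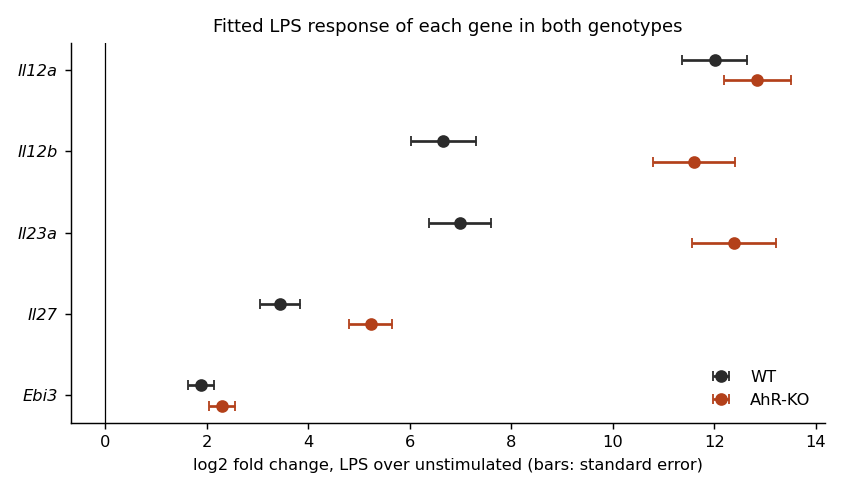
Fitted log2 fold change of LPS over unstimulated for each gene, with bars of 1 standard error, in wildtype (dark) and AhR-deficient BMDMs (red). The values run from 1.88 for Ebi3 to 12.01 for Il12a in wildtype, and those of Il12a in both genotypes and of Il23a in AhR-deficient BMDMs depend on the prior count since at most 3 counts preceded LPS.

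Levels of different genes were compared as CPM per kb of merged exons. In unstimulated wildtype BMDMs the order was Ebi3 at 14.4, Il27 at 0.840, Il12b at 0.210, Il23a at 0.0253 and Il12a at 0.00391 CPM per kb, and only the ranges of the neighbours Il23a and Il12a overlapped. In unstimulated AhR-deficient BMDMs Ebi3 at 10.7 and Il27 at 0.659 CPM per kb again led without overlap, and the ranges of Il12b, Il12a and Il23a overlapped near 0. After LPS in wildtype, Ebi3 led at 53.1 ± 2.91 CPM per kb (SD, n = 6) with no overlap, and Il12a at 22.7, Il12b at 21.7, Il27 at 9.07 and Il23a at 3.49 CPM per kb each overlapped the next. AhR-deficient BMDMs after LPS had a different leader, with Il12b at 72.4 ± 81.8 and Ebi3 at 52.8 ± 23.5 CPM per kb (SD, n = 6), but all neighbours in the order overlapped and the mean of Il12b rests on replicate 31.

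The chains of IL-27 moved closer to each other with LPS, and the ratios of the other pairs before LPS rest on few counts. For each pair the log2 ratio of counts per kb was taken with 0.5 counts added. A test is given for IL-27 in wildtype only, as an exact two-sided permutation test of LPS against unstimulated libraries. Its smallest possible p is 0.00216, and the adjustment covers the 6 differences of both genotypes. Il12b stood at a log2 ratio of 4.99 to Il12a in unstimulated wildtype BMDMs and at 0.00 after LPS, which is 1 to 1 per length, a difference of -4.99. In AhR-deficient BMDMs the ratio went from 1.31 to 0.78, a difference of -0.54. Il12a had no counts in 5 of the 6 unstimulated libraries of each genotype, so the unstimulated ratios are set by the counts added and are not tested, and the difference in wildtype was -6.92 with 0.1 and -3.34 with 2 counts added.

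Il12b and Il23a stood at a log2 ratio of 2.64 after LPS in wildtype, with a range from 2.31 to 2.95, and of 2.59 in AhR-deficient BMDMs, with a range from 1.90 to 3.10. With LPS the ratio differed by -0.51 in wildtype and by 0.75 in AhR-deficient BMDMs. Neither difference is tested, since Il23a passed the filter on low counts only through the LPS groups. Both rest on few counts before LPS. With 2 counts added they were 0.0795 and 1.54, and with 0.1 counts added -0.99 and -0.33. Without wildtype unstimulated replicate 34 the difference in wildtype was -0.70.

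For IL-27, Ebi3 exceeded Il27 per length before stimulation by a log2 ratio of 4.23 in wildtype and 3.97 in AhR-deficient BMDMs. After LPS the ratio was 2.71 in wildtype, a change of -1.52 (n = 6, exact permutation p = 0.00649, adjusted p = 0.013), and 1.08 in AhR-deficient BMDMs, a difference of -2.89. In linear terms the stimulated libraries had 3.33 to 11.5 Ebi3 transcripts per Il27 transcript and length in wildtype and 1.05 to 7.25 in AhR-deficient BMDMs, and these ranges overlapped. Transcript ratios are not protein ratios, and secreted cytokines were not measured in these libraries.

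**Figure D3:**
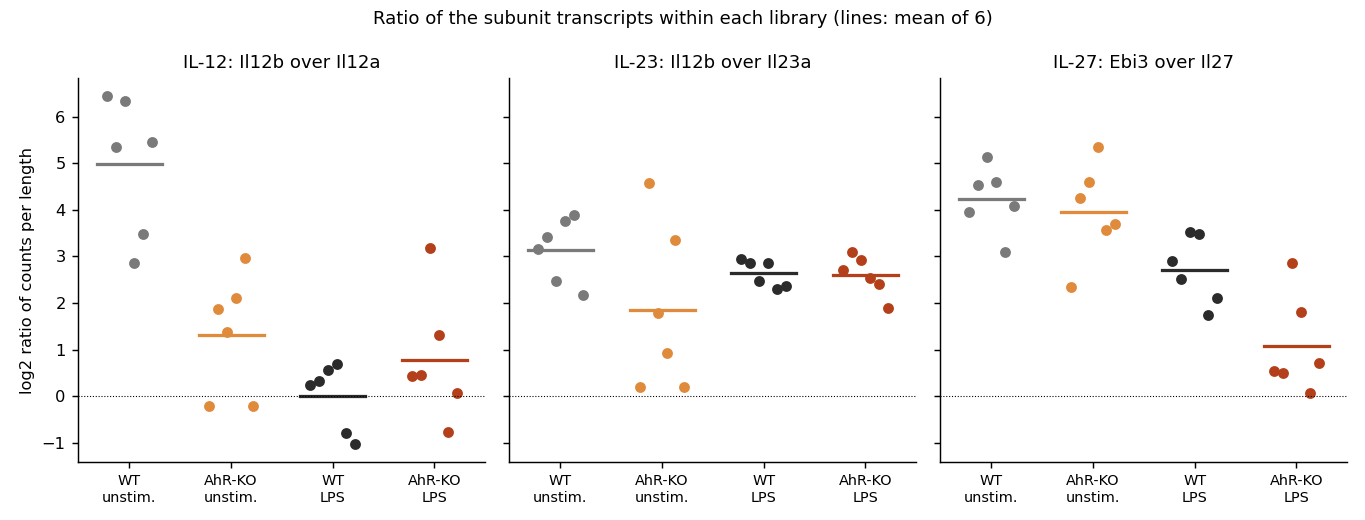
Log2 ratio of counts per length of the paired chains in each library, with lines at the mean of 6 and a dotted line where both chains are equal. Il12b over Il12a falls to about equal after LPS in wildtype, Il12b over Il23a stays between 1.90 and 3.10 in all LPS libraries, and Ebi3 over Il27 is lower after LPS in both genotypes.

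The genotype difference of Il12b and Il23a had opposite signs in the 2 states, which is what chose these genes. Without stimulation the log2 fold change, AhR-deficient over wildtype, was -3.20 for Il12b, and 5 of the 6 AhR-KO libraries were below all wildtype libraries. For Il23a it was -3.71, from 1 count against 25. After LPS it was 1.74 for Il12b, with no overlap between the groups, 1.68 for Il23a and 1.45 for Il27.

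Il12a and Ebi3 showed smaller differences. Ebi3 differed by -0.43 on the log2 scale without stimulation and by -0.01 after LPS, and Il27 by -0.34 without stimulation. Il12a differed by 0.47 after LPS, with the groups overlapping, and it has no fold change without stimulation since both groups had at most 3 counts. As these contrasts chose the genes, no test of them is given.

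A part of the difference after LPS rested on replicate 31. Without it, Il12b in AhR-KO LPS libraries was 77.5 ± 25.8 CPM (SD, n = 5, 57.7 to 121), still with every library above the wildtype ones, and the log2 fold change fell from 1.74 to 0.86. Il23a was 16.1 ± 7.37 CPM (SD, n = 5), and its log2 fold change was 1.03 in place of 1.68. Il27 was not highest but lowest in replicate 31, and its log2 fold change was 1.59 without it. For Ebi3 the value was -0.21.

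Replicate 31 was also the highest AhR-KO LPS library for some genes of dendritic cells and of macrophages. Ccr7, the chemokine receptor of migrating dendritic cells, was at 884 CPM there and at 96.5 to 370 CPM in the other libraries, and Zbtb46, a transcription factor of conventional dendritic cells, at 7.65 CPM against 1.37 to 3.43 CPM. Irf8, a factor of dendritic cells that also acts on the Il12b promoter, was at 183 CPM against 32.4 to 55.7 CPM. Of the 8 dendritic cell markers 3 were highest in replicate 31, while Flt3 was at 0.0197 CPM and Cd209a at 0. Of the 10 markers of alveolar-like macrophages 3 were highest there as well, among them Pparg at 33.4 CPM against 12.6 to 21.1 CPM. Of all genes tested 19.5% were highest in this library. The part of these cells in the result was not tested.

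**Figure D4:**
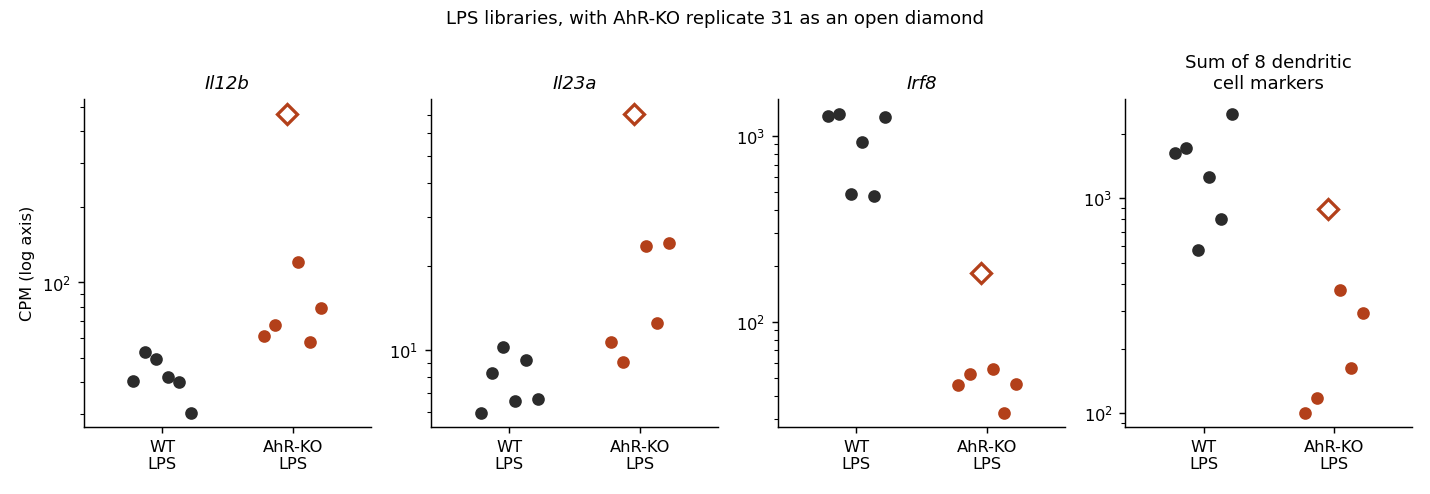
CPM on log axes of Il12b, Il23a, Irf8 and the sum of 8 markers of conventional dendritic cells in the 12 LPS libraries, 1 point per library, with AhR-KO LPS replicate 31 as an open diamond. Most of the sum is Ccr7. Replicate 31 is highest of its group in all panels, while Irf8 is lower in all AhR-KO libraries than in all wildtype libraries.

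The libraries also form 3 runs of consecutive numbers, 17 to 24, 25 to 32 and 33 to 40, each holding 2 libraries per group, and the labels do not say whether these were batches. After LPS the mean log2(CPM + 0.5) of Il12b was higher in AhR-deficient BMDMs by 0.47, 2.37 and 0.95 in the 3 runs, that of Il23a by 0.46, 2.25 and 1.10, and that of Il27 by 1.37, 1.79 and 1.21. Replicate 31 belongs to the second run. The values for Ebi3 were -0.76, 0.72 and -0.30 and had no common sign.

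Markers of several other cell types differed with genotype, most of them lower in AhR-deficient BMDMs. The summed level of 8 markers of conventional dendritic cells was 577 to 2455 CPM in wildtype LPS and 101 to 894 CPM in AhR-KO LPS libraries (at most 374 CPM without replicate 31, below all wildtype libraries), with Cd209a at 0 in wildtype LPS, and 5 of the 7 tested were lower in AhR-deficient BMDMs, beside 6.19% of all genes. Most of the sum after LPS was Ccr7, at 541 to 2413 CPM in wildtype and 96.5 to 884 CPM in AhR-deficient BMDMs. Without stimulation the summed level was 24.1 to 145 and 9.42 to 17 CPM, and 5 of the 7 were lower, beside 3.57% of all genes, and Clec9a was higher. Neutrophil markers came to 711 to 8400 CPM in wildtype LPS and 135 to 1016 CPM in AhR-KO LPS libraries, with 5 of 7 lower, and without stimulation to 1591 to 12650 and 240 to 795 CPM, with all 7 tested lower. Cd207 and Epcam, which mark Langerhans cells, were lower in AhR-deficient BMDMs in both states, with a summed level of 6.96 to 26.03 CPM in wildtype LPS and 0 to 0.315 CPM in AhR-KO LPS libraries and Cd207 at 0 in the latter. Without stimulation their sums were 56.7 to 154 and 0.781 to 3.48 CPM.

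Mast cell and basophil markers came to 7.08 to 31.6 CPM in wildtype LPS and 2.49 to 7.30 CPM in AhR-KO LPS libraries, with 4 of 6 lower, beside 6.19% of all genes. Without stimulation they came to 4.58 to 18.96 and 1.38 to 3.56 CPM, with 3 lower, beside 3.57% of all genes. The 6 markers of T, NK and innate lymphoid cells summed to 34.5 to 114 CPM in wildtype LPS and 71.0 to 260 CPM in AhR-KO LPS libraries, and the T cell genes Cd3e and Cd3g were at 0 in the latter. Most of this sum was Il7r, at a mean of 69.6 and 145 CPM (log2 fold change 1.06, adjusted p = 0.109), while Thy1 was lower, at 10.1 against 0.211 CPM (-5.58, adjusted p = 8.9e-05), and Klrb1c higher, at 0.120 against 0.477 CPM (1.95, adjusted p = 8.6e-03). Without stimulation the sums were 11.1 to 49.8 and 7.20 to 31.1 CPM. The 4 B cell markers summed to 8.81 to 40.1 CPM in unstimulated wildtype, to 0.406 to 0.997 CPM in unstimulated AhR-deficient BMDMs, and to at most 2.01 CPM in all LPS libraries, and 3 stromal markers to at most 7.12 CPM in any library. Markers of plasmacytoid dendritic cells summed to 7.27 to 30.5 CPM in wildtype LPS and 9.14 to 55.4 CPM in AhR-KO LPS libraries, with Siglech at 0 in both, and to 3.63 to 14.1 and 3.71 to 15.97 CPM without stimulation, with Ly6d at 0 in both. In bulk RNA, fewer cells of a type and less RNA per cell cannot be told apart, and the part of these cells in the cytokine levels was not tested.

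Pathway genes around the 5 cytokines were described in 6 lists with 48 genes, of which 42 could be tested. LPS raised 27 of them in wildtype, beside 13.2% of all genes, and 26 in AhR-deficient BMDMs, beside 15.1%, and lowered none. The median log2 fold change of the 42 was 1.87 and 1.78, beside 0.03 and -0.03 over all genes. Without stimulation 1 of the 42 was higher and 4 were lower in AhR-deficient BMDMs, beside 0.916% of all genes called higher and 3.57% called lower. After LPS 3 were higher, beside 2.17% of all genes, and 3 lower, beside 6.19%. In the interaction of genotype and LPS 4 of the 42 were called, beside 4.3% of all genes. Il23r, Il22 and Il10 passed the filter on low counts only through LPS libraries, and their calls within these counts are a description.

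Of the 5 receptor chains, Il23r was higher after LPS in both genotypes, and LPS raised Il12rb2 in wildtype. Il23r, the specific chain of the IL-23 receptor, went from 0.0365 to 14.8 CPM in wildtype (log2 fold change 8.57) and from 0.0887 to 14.7 CPM in AhR-deficient BMDMs (7.31). The latter ranged from 7.05 to 8.72 with 1 library left out, as AhR-KO unstimulated replicate 36 held 25 of the 36 counts before LPS. Il23r passed the filter on low counts only through the LPS groups, so its response had to differ and is not tested. Il12rb2, the specific chain of the IL-12 receptor, went from 8.0 to 28.1 CPM in wildtype with overlapping libraries (1.81, adjusted p = 0.0165, and 1.46 with adjusted p = 0.0632 when scaled by total library size). Il12rb1, the chain both receptors share, had a mean of at most 0.545 CPM in every group. Il27ra, the receptor chain for IL-27, was higher in AhR-deficient BMDMs in both states without overlap, at 8.25 against 2.55 CPM without stimulation (1.69, adjusted p = 5.1e-05) and 7.90 against 3.52 CPM after LPS (1.17, adjusted p = 1.6e-03, and 0.94 when scaled by total library size, under the minimum fold change).

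Among 8 genes of receptor signalling, 6 rose with LPS in each genotype and none fell. One of them, Stat3, did not pass under several alternatives, with an adjusted p up to 0.113 in wildtype and 0.183 in AhR-deficient BMDMs. The largest were Stat4, which IL-12 activates, with log2 fold changes of 5.07 in wildtype and 6.96 in AhR-deficient BMDMs, Socs3, a feedback inhibitor, with 3.82 and 4.41, Jak2 with 2.24 and 2.82, and Socs1 with 2.20 and 3.83. The value of 6.96 for Stat4 rests on 8 counts in 1 unstimulated AhR-KO library, and with 1 library left out it ranged from 5.77, without AhR-KO LPS replicate 31, to 10.23, without AhR-KO unstimulated replicate 27. Stat4 was lower in AhR-deficient BMDMs in both states, at 0.0148 against 0.791 CPM without stimulation (-5.26, adjusted p = 3.0e-03, and -8.53 without AhR-KO unstimulated replicate 27) and 2.58 against 26.8 CPM after LPS (-3.37, adjusted p = 9.1e-03, and -4.56 without replicate 31). Socs1, which inhibits JAK kinases, was lower without stimulation, at 8.40 ± 2.73 against 26.1 ± 4.24 CPM (SD, n = 6; -1.63, adjusted p = 3.2e-06), and stood at 119 and 120 CPM after LPS.

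Of the 7 genes of LPS and CD40 input, LPS raised Cd14, Cd40 and Ly96 in both genotypes. Cd14, a co-receptor for LPS, rose by 5.32 on the log2 scale in wildtype and 5.60 in AhR-deficient BMDMs, and Ly96, which forms the LPS receptor with TLR4, by 1.45 and 1.32, the latter 0.88 and under the minimum when scaled by total library size. Cd40, the receptor through which T cells stimulate macrophages, went from 7.46 to 276 CPM in wildtype (5.21, adjusted p = 7.2e-10) and from 1.11 to 541 CPM in AhR-deficient BMDMs (8.93, adjusted p = 7.9e-13). It was lower in AhR-deficient BMDMs without stimulation, with no overlap (-2.75, adjusted p = 2.9e-05), and after LPS its log2 fold change of 0.97 did not pass (adjusted p = 0.0737). Ticam2, the adaptor that links TLR4 to interferon signalling, was higher after LPS at 57.5 against 26.8 CPM (1.10, adjusted p = 8.8e-05). That value was 0.96 without replicate 31 and 0.88 when scaled by total library size, both under the minimum fold change. Without stimulation it was at 61.0 against 33.8 CPM with no overlap, a log2 fold change of 0.85 that is under the minimum (adjusted p = 2.2e-03).

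Of the activators of the cytokine genes 6 of 10 rose with LPS in each genotype, and under the alternatives 4 to 7 in wildtype and 5 to 7 in AhR-deficient BMDMs. Nfkbiz, a nuclear cofactor of NF-κB, rose by 4.89 on the log2 scale in wildtype and 6.20 in AhR-deficient BMDMs, Rel, an NF-κB subunit, by 2.37 and 2.12, and Irf1 by 1.96 and 2.08. Nfkb1, another NF-κB subunit, rose by 1.65 and 1.98, with overlapping libraries, and the wildtype value was 1.31 with an adjusted p of 0.0878 when scaled by total library size. Irf8 did not share this pattern. It went from 111 ± 27.1 to 955 ± 394 CPM in wildtype (SD, n = 6; 3.10, adjusted p = 3.9e-07) and from 63.2 ± 6.52 to 69.2 ± 56.3 CPM in AhR-deficient BMDMs (SD, n = 6; 0.13, adjusted p = 0.798). After LPS all AhR-KO libraries, at 32.4 to 183 CPM, were below all wildtype libraries, at 474 to 1303 CPM (-3.79, adjusted p = 3.1e-07, and -4.37 without replicate 31), the opposite direction to Il12b in the same libraries.

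Genes that restrain the cytokines rose with LPS as well, 9 of 11 in wildtype and 10 of 11 in AhR-deficient BMDMs, and under the alternatives 7 to 10 and 8 to 10. Il10, whose product inhibits Il12b transcription, had no counts in any unstimulated library and 2.80 ± 0.953 CPM in wildtype LPS and 2.46 ± 1.49 CPM in AhR-KO LPS libraries (SD, n = 6). Against a floor of 3 counts over the group, it was at least 365-fold higher with LPS in wildtype and at least 314-fold higher in AhR-deficient BMDMs. Tnfaip3, an inhibitor of NF-κB signalling, rose by 3.44 and 3.51 on the log2 scale and Maf by 3.35 and 4.80, and Dusp1, a phosphatase that ends MAP kinase signals, rose by 3.59 and 3.40. Atf3, a repressor of Toll-like receptor target genes, rose by 2.42 in wildtype and 3.87 in AhR-deficient BMDMs and was higher in the latter after LPS, at 600 ± 159 against 120 ± 20.6 CPM (SD, n = 6; 2.32, adjusted p = 2.0e-08) with no overlap.

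Of the 7 effector genes of lymphocytes only Il22 passed the filter on low counts. It did so through the wildtype LPS libraries, so its differences are a description and are not tested. Il17a and Il17f had no counts in any library, and Ifng had 9 counts in wildtype LPS and 4 in AhR-KO LPS libraries. Il22, a cytokine that IL-23 induces in lymphoid cells, went from 0.116 to 11.1 CPM in wildtype (log2 fold change 6.54, adjusted p = 3.1e-05) and had no counts in any AhR-deficient library. After LPS it was at least 1090-fold lower in AhR-deficient BMDMs against a floor of 3 counts over the group, and without stimulation at least 15.6-fold lower. Of the 49 counts in unstimulated wildtype BMDMs, 28 lay in replicate 17.

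**Figure D5:**
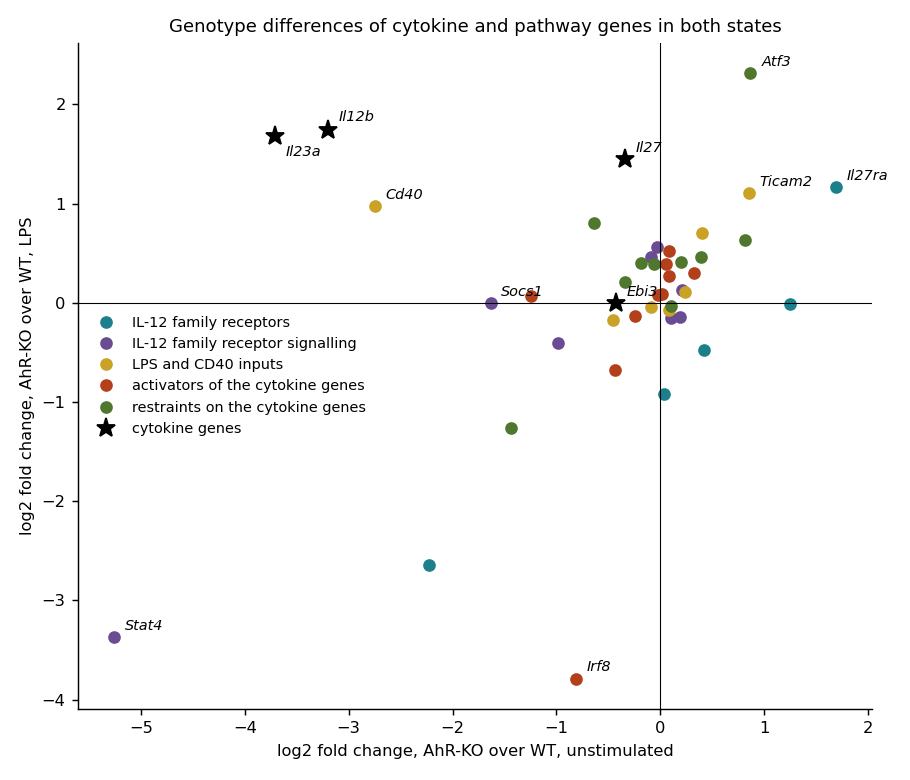
Fitted log2 fold change of AhR-deficient over wildtype without stimulation (horizontal) and after LPS (vertical), with dots for tested pathway genes coloured by list, stars for Il12b, Il23a, Il27 and Ebi3, and names on these and on pathway genes called in either state. Il12b, Il23a and Cd40 lie at the upper left, Stat4 and Irf8 at the bottom, and Il12a and Il10, with at most 3 counts in both unstimulated groups, and Il22, without counts in AhR-deficient BMDMs, are not drawn.

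Genes with the most similar profile were found over all 24 libraries, as the 3 highest Pearson correlations of log2(CPM + 0.5) among 12713 genes with a mean of at least 1 CPM. All 24 libraries share the same LPS contrast, so high values are a description of that step. Nearest to Il12b were Ptgs2 (r = 0.990), Junb (0.988) and Pde4b (0.985), and nearest to Il23a were Ptgs2 (0.988), Junb (0.982) and Hamp (0.980). Ptgs2, which encodes the inducible cyclooxygenase, rose from 0.835 to 560 CPM in wildtype and from 0.6246 to 3152 CPM in AhR-deficient BMDMs. Over the 12 LPS libraries alone its correlation was 0.838 with Il12b and 0.896 with Il23a, and without replicate 31 it was 0.901 and 0.917.

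Il12a lay nearest to Il1a (r = 0.998), Mir155hg (0.996) and Cxcl2 (0.996), and its correlation with Il1a, which encodes the cytokine IL-1α, was 0.960 over the 12 LPS libraries. Il27 lay nearest to Fcgr1 (0.990), Ms4a6d (0.990) and Slfn2 (0.987), with 0.979 for Fcgr1, a high-affinity Fc receptor, over the LPS libraries. Ebi3 had the lowest of these values, with Grina (0.973), Praf2 (0.973) and Dusp16 (0.962). Within the 12 LPS libraries the 5 genes formed no single pattern. Il12b and Il23a correlated at 0.946 and Il12a and Il27 at 0.835, while Il12a and Il12b correlated at 0.112 and Il27 and Ebi3 at -0.277, each over libraries of both genotypes. Without replicate 31 these values were 0.862, 0.839, 0.166 and -0.299.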

How the data were processed

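Per the labels and the study's methods, polyadenylated RNA was sequenced with a directional kit. The authors used GSNAP for alignment to mm10 and featureCounts 2.0.1, set to reverse strand and unique alignments, for counting on Ensembl release 98 genes, and deposited these whole-number counts without normalization. Symbols came from GENCODE M21 (55154 of 55421 genes). The 92 spike-in rows held 1 count and were left out.

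All 24 libraries entered 1 fit in edgeR 4.0.16 (R 4.3.3) with 1 coefficient per group, TMM factors, filterByExpr (16593 genes tested), the robust quasi-likelihood F-test and Benjamini-Hochberg adjustment over all genes tested. Calls used an adjusted p up to 0.05 and a log2 change of 1 or more in size, and for the interaction no minimum. The interaction was added after the values had been seen. CPM are scaled by TMM factors. Subunit ratios were compared by exact permutation in scipy 1.17.1 (Python 3.11.15). Floors of 3 counts and binomial intervals cover counting error only. The biological coefficient of variation was 49.1%.

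The cytokine genes, lists and alternatives were chosen with earlier results of these data known. Named genes are the 5 cytokine genes, up to 4 called genes per pathway list and comparison by size of change, Ahr, Ahrr and Cyp1b1, and the 3 most correlated genes per cytokine gene. Genes of marker lists, of replicate 31 and those named for not passing were chosen after their values were seen. Alternatives were other size factors, DESeq2 1.42.0, limma-voom (limma 3.58.1), other filters, the 12 libraries compared, a factor for runs, a covariate for the gene length slope of libraries, no minimum fold change, and each library left out. On simulated counts with 200 of 16593 genes changed by 2 on the log2 scale, edgeR recovered 67.5% for LPS in wildtype and 71.0% for LPS in AhR-KO, with 3 and 5 unchanged genes called. Promoter windows came from a RefSeq table. Values of some single genes of these lists are not reported here.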

Additional observations from a re-analysis of the deposited data

Results flagged for a closer look

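In a group of 6 libraries, a value was taken as far from the others where its gap to the nearest, as a share of the range, exceeded the 95% critical value of Dixon's test, and 32 groups were examined, of which chance gives about 1 in 20. AhR-KO LPS replicate 31 was far above the others of its group for Il12b, at 467.3 CPM, and for Il23a, at 70.26 CPM. Wildtype unstimulated replicate 33 was far above its group for Il27, at 1.815 CPM. The other such values rest on at most 3 counts, namely Il12a at 0.0399 CPM in wildtype unstimulated replicate 26 and at 0.0302 CPM in AhR-KO unstimulated replicate 20, and Il23a at 0.0165 CPM in AhR-KO unstimulated replicate 28.

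The response to LPS differed between genotypes by an interaction test in edgeR for 4 of the 42 tested pathway genes and for Ahr itself, a test chosen after the values were seen. The log2 response in AhR-deficient minus that in wildtype BMDMs was 3.72 for Cd40 (SE 0.51, adjusted p = 1.1e-04), 1.63 for Socs1 (0.26, adjusted p = 5.9e-04), 1.45 for Atf3 (0.26, adjusted p = 1.6e-03) and -2.97 for Irf8 (0.49, adjusted p = 7.8e-04). For Ahr it was 3.29 (0.50, adjusted p = 3.7e-04), over exons that include those outside the deletion.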

How the results depend on the processing

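The LPS effects of Il12b, Il27 and Ebi3 in wildtype kept their direction and their call in all 102 refits, with an adjusted p of at most 8.5e-05. Scaling by total library size in place of TMM changed the mean log2 scaling between the groups compared by -0.35 for LPS in wildtype, -0.48 for LPS in AhR-deficient BMDMs, -0.08 for genotype without stimulation and -0.22 for genotype after LPS, and the share of calls that were higher fell from 52.8% to 33.9%, from 49.0% to 28.2%, from 20.4% to 17.1% and from 26% to 14.9%. Genotype after LPS was then 1.52 for Il12b, 1.47 for Il23a, 1.25 for Il27, 0.26 for Il12a and -0.23 for Ebi3, whose sign turned with the scaling (0.01 with DESeq2 size factors).

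Without a minimum fold change 6305 genes in place of 4137 were called for LPS in wildtype and 2096 in place of 1387 for genotype after LPS. For genotype without stimulation Il12b was -3.74 with limma-voom, and Il23a was -3.86 with total library size, -3.87 with DESeq2, -2.45 with limma-voom and -3.81 with a factor for runs. For Il23a 1 count stands against 25. With 2 counts added, the difference with LPS was 0.20 for Il12b over Il12a in AhR-deficient BMDMs, 0.0795 for Il12b over Il23a in wildtype and 1.54 for Il12b over Il23a in AhR-deficient BMDMs, and the last was -0.33 with 0.1 counts added. These ratios rest on few counts of Il12a or Il23a before LPS, and they depend on the number of counts added.

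With 1 library left out, genotype without stimulation ranged from -4.15 to -2.94 for Il12b, from -4.86 to -3.41 for Il23a and from -0.47 to 0.02 for Il27, and genotype after LPS from 0.86, without AhR-KO LPS replicate 31, to 1.89 for Il12b. The change of Il12b over Il23a in wildtype ranged from -0.70 to -0.36. No paired analysis was possible because the groups share no replicate numbers, and the factor for runs stood in its place as a block of libraries, not of pairs. Depth limits Il12a and Il23a before LPS, where at most 3 counts were found in some groups.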
